A study of Procambarus virginalis and Procambarus fallax with 9 samples.

Results

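A set of 65 genes whose relative level stayed within a factor of 3 over all RNA-seq libraries was selected from the 21773 gene models of the marbled crayfish, Procambarus virginalis. The members were chosen by their deposited TPM, a measure in which the fragments of a gene are divided by its effective length and the sum over genes is made equal in all libraries. A member had a TPM of at least 10 in all 9 libraries and a mean TPM below 1000 in both tissues sampled from P. virginalis. Each TPM was then divided by the median TPM of its library, taken over the 2371 genes with a TPM of at least 1 in all 9 libraries, and the highest of the 9 scaled values of a member was at most 3 times the lowest. Because these values chose the members, their level and their uniformity are given as a description and were not tested.

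By the sample names, the libraries came from 3 groups of 3 animals. The series description counts 6 individuals of P. virginalis and 2 of P. fallax instead, and the sample names were followed, so that the pairing of tissues and n = 3 for P. fallax rest on them. Pvir hep and Pvir abdM are the hepatopancreas and the abdominal musculature of the same 3 P. virginalis animals of the Heidelberg laboratory strain, numbered 2, 6 and 7, and Pfal abdM is the abdominal musculature of 3 P. fallax females from aquarium supply, numbered 1, 3 and 4. The tissues were dissected from adults, and the labels name no treatment and no age. P. virginalis is an all-female species that reproduces by parthenogenesis, so its 3 animals are members of 1 clone, whereas P. fallax is the sexually reproducing species from which it arose. Reads of both species were assigned to gene models of P. virginalis.

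Genes that every cell needs, for example for protein synthesis, protein breakdown, energy supply and transport within the cell, are called housekeeping genes. They are used as internal references in expression measurements, since a steady level in all samples allows other genes to be set against them. In arthropods that carry DNA methylation, the bodies of such genes are often the methylated part of the genome. The hepatopancreas of decapods is the gland that makes digestive enzymes and stores lipids, and the abdominal musculature drives the tail flip, so these organs differ widely in the genes they use. Genes carry only gene-model identifiers in the files, without names. The function of the members and the marker genes of the tissues were therefore not examined, and no member is called a housekeeping gene here.

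Total expected counts, the fragments that RSEM estimated for all genes of a library, ranged from 6001494 in Pvir abdM of animal 7 to 67369392 in Pvir hep of animal 2. The 10 most abundant genes held between 34.3% and 41.8% of the TPM in the hepatopancreas. In muscle they held between 56.8% and 73.3%. The sum of TPM is fixed, so what such genes take is missing from the rest. The scaling median was 15.65, 15.81 and 18.89 TPM in Pvir hep of animals 2, 6 and 7. It was 7.10, 3.86 and 11.44 TPM in Pvir abdM of the same animals, and 7.88, 9.64 and 18.38 TPM in Pfal abdM of animals 1, 3 and 4. The hepatopancreas medians were above all P. virginalis muscle medians, and the lowest and the highest of the 9 medians differed 4.89-fold.

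Most genes left the set at the first step. Of the 21773 gene models, 2371 (10.9%) had a TPM of at least 1 in every library and 501 (2.30%) had a TPM of at least 10 in every library. The upper limit removed 93 of these and left 408 genes. Of the 408 genes, 65 (15.9%) met the limit on the ratio and 343 did not, and the latter are called the other genes at this level. The floor bore unequally on the libraries. In Pvir abdM of animal 6, which had the smallest scaling median, a TPM of 10 corresponds to 2.59 times the median, against 0.529 times the median in Pvir hep of animal 7. The members' scaled values therefore started at 2.65 in Pvir abdM of animal 6 and at between 1.06 and 1.56 in the other 8 libraries.

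The most uniform member was maker-scaffold48176-snap-gene-0.16, a gene model of 2598 nt. Its scaled TPM was 6.98, 8.69 and 7.70 in Pvir hep of animals 2, 6 and 7, 9.24, 7.39 and 9.68 in Pvir abdM of the same animals, and 7.40, 6.45 and 7.74 in Pfal abdM of animals 1, 3 and 4. The highest value was 1.50 times the lowest, and the 3 groups overlapped. Before scaling, its TPM ranged from 28.53 in Pvir abdM of animal 6 to 145.49 in Pvir hep of animal 7, a 5.10-fold range.

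The next most uniform member was maker-scaffold25493-snap-gene-0.46, with a length of 1431 nt. Its scaled TPM was 2.72, 2.31 and 2.85 in Pvir hep, 2.75, 3.46 and 2.23 in Pvir abdM, and 3.36, 2.65 and 2.46 in Pfal abdM, with the animals in the same order. Here the ratio of the highest to the lowest was 1.55. The extremes, animals 6 and 7 of Pvir abdM, were libraries of the same tissue and species, and again the groups overlapped.

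The most abundant member was snap-scaffold8703-processed-gene-0.1, 1863 nt long, with a mean TPM of 984.6 over the 9 libraries. Its TPM was 1038, 923.0 and 875.5 in Pvir hep of animals 2, 6 and 7, with a scaled TPM of 66.3, 58.4 and 46.3. In Pvir abdM its TPM was 878.1, 250.3 and 1124, and its scaled TPM was 123.7, 64.8 and 98.2. In Pfal abdM its TPM was 966.6, 692.1 and 2114, and its scaled TPM was 122.7, 71.8 and 115.0. Its ratio was 2.67. The hepatopancreas values were below the muscle values except for Pvir abdM of animal 6, which was lower than the hepatopancreas of animal 2. Its mean TPM of 945.6 in Pvir hep was the highest of any member there and the value nearest below the upper limit.

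At the limit on the ratio, maker-scaffold16694-snap-gene-0.5 was the last member inside, with a ratio of 2.99. Its scaled TPM was 2.17, 3.54 and 2.10 in Pvir hep, 1.78, 3.81 and 1.83 in Pvir abdM, and 1.27, 1.32 and 1.43 in Pfal abdM. All 3 P. fallax values were below all 6 P. virginalis values. Its TPM of 10.02 in Pfal abdM of animal 1 also was the lowest value of any member and the nearest above the floor. The first gene outside was maker-scaffold6508-snap-gene-0.0, with a ratio that exceeded the limit and rounds to 3.00. Its scaled TPM was 5.26, 6.01 and 8.27 in Pvir hep, 9.84, 11.3 and 9.94 in Pvir abdM, and 14.2, 15.2 and 15.8 in Pfal abdM, so that its 3 groups did not overlap at all. A gene with a ratio of 2.38 was left out because its lowest TPM was 9.97.

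In level, the members were moderately abundant. Their mean TPM over the 9 libraries ranged from 18.6 to 984.6, with a median of 48.3 and quartiles of 34.1 and 71.9. It was under 50 for 34 members and at least 100 for 8, and the most abundant member alone held 18.1% of the summed mean TPM of the set. The other genes at this level had a median of 83.3 TPM. Among the genes with a TPM of at least 1 in a library, the median member stood between the 81.7th percentile in Pvir abdM of animal 6 and the 91.7th in Pfal abdM of animal 4. No member fell below the 72.2nd percentile or above the 98.8th in any library.

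Before scaling, the members were far from uniform. Their median TPM was 60.5, 64.1 and 78.5 in Pvir hep of animals 2, 6 and 7, 26.8, 15.1 and 46.5 in Pvir abdM, and 31.0, 43.1 and 77.8 in Pfal abdM of animals 1, 3 and 4. The hepatopancreas values lay above all P. virginalis muscle values, whereas P. fallax animal 4 reached the level of the hepatopancreas. Across the 9 libraries the deposited TPM of a member ranged over a factor of 2.44 to 12.8 (median 5.28), and it stayed within a factor of 3 for only 2 of the 65 members. After scaling, the medians were between 3.77 and 4.47 in all 9 libraries. Single members still varied, with a median ratio of the highest to the lowest scaled value of 2.58 (quartiles 2.27 and 2.77). The ratio was at most 2 for 7 members and above 2.5 for 35. In the group means the scaled median was 4.02 ± 0.148 (SD, n = 3) in Pvir hep, 3.91 ± 0.149 in Pvir abdM and 4.21 ± 0.267 in Pfal abdM.

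**Figure D1:**
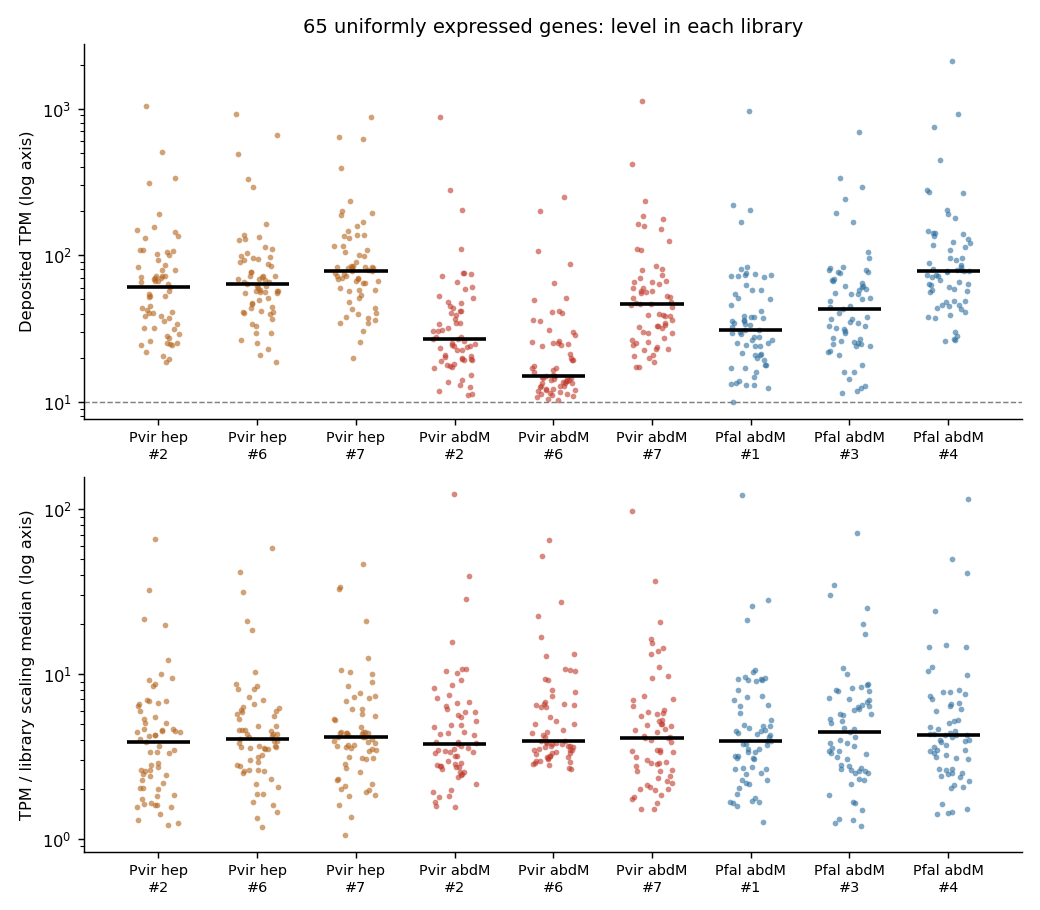
TPM of the 65 members in each library before scaling (top) and after division by the scaling median of the library (bottom), both on log axes. Points are genes, black lines are medians, and the dashed line is the floor of 10 TPM. Before scaling the medians range from 15.1 to 78.5 TPM, and after scaling they lie between 3.77 and 4.47.

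Together the members held a small share of the RNA. They took 0.608%, 0.670% and 0.772% of the TPM in Pvir hep of animals 2, 6 and 7 (0.684% ± 0.083, SD, n = 3). In Pvir abdM they took 0.338%, 0.187% and 0.524% (0.350% ± 0.169), and in Pfal abdM of animals 1, 3 and 4 they took 0.374%, 0.451% and 0.969% (0.598% ± 0.323). All hepatopancreas libraries were above all P. virginalis muscle libraries, while both muscle groups overlapped. The rule limits how far a member's TPM departs from the scaling median, so the share is tied to these medians. They too were higher in the hepatopancreas than in P. virginalis muscle, and the order of these groups is therefore largely given. Within an animal, the share in the hepatopancreas was 1.80, 3.58 and 1.47 times that in muscle for animals 2, 6 and 7. In expected counts the share was larger in every library, 0.861% ± 0.059 in Pvir hep, 0.496% ± 0.236 in Pvir abdM and 0.837% ± 0.431 in Pfal abdM. The muscle library in which the members held least, animal 6 of P. virginalis, had the smallest scaling median, which the rule likewise brings about in large part. The 10 most abundant genes held 73.3% of the TPM in Pvir abdM of animal 2 and 68.8% in animal 6, where the members held less. They held 56.8% in Pfal abdM of animal 4, where the members held most, and between 34.3% and 41.8% in the hepatopancreas. The part of these abundant genes in the members' share was not tested. After scaling, the members' medians lay between 3.77 and 4.47 in all 9 libraries, so the differences in share are not read as differences in relative level. In bulk RNA with a fixed sum of TPM, 3 conditions cannot be told apart. These are fewer cells that use these genes, less of their RNA per cell, and more RNA of other genes.

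**Figure D2:**
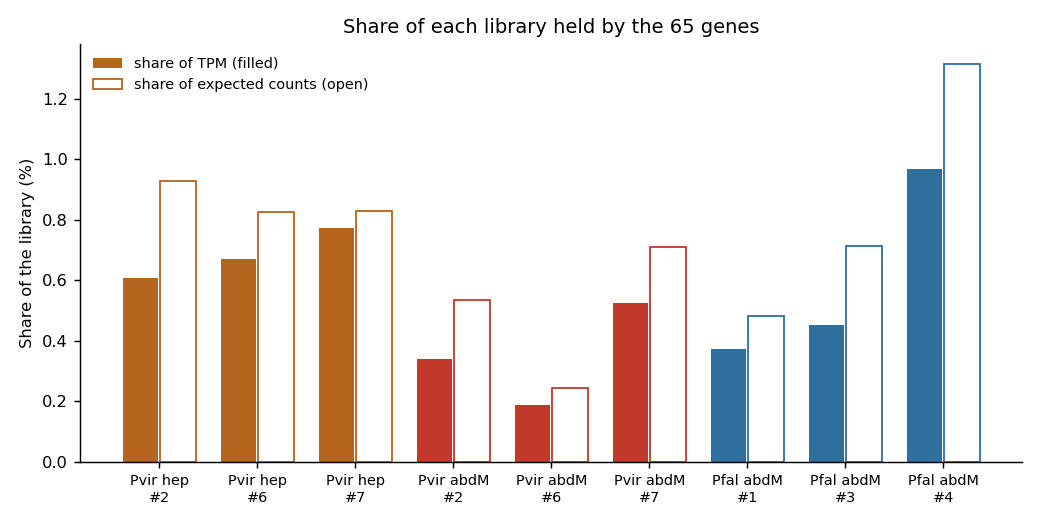
Share of each library held by the 65 members together, as percent of TPM (filled bars) and of expected counts (open bars). The hepatopancreas libraries lie between 0.608% and 0.772% of TPM, and the muscle libraries between 0.187% and 0.969%.

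Gene length was not used by the rule. The members' gene models measured between 232 and 4854 nt, with a median of 962 nt and quartiles of 563 and 1703 nt. The other genes at this level had nearly the same lengths, with a median of 977 nt and quartiles of 574 and 1654 nt. Both were longer than the gene models as a whole (median 546 nt) and shorter than the genes with a TPM of at least 1 in every library (median 1204 nt). Models under 500 nt made up 20.0% of the members, 20.4% of the other genes at this level and 45.7% of all models. Models over 2000 nt made up 18.5%, 12.2% and 11.9% in the same order. Across the 65 members, length was hardly related to mean TPM (Spearman's rho = 0.07) or to the ratio (rho = 0.02), as a description over genes measured in the same libraries.

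The length of a member also was not tied to its difference between tissues. The 33 members of up to 962 nt had a median log2 difference in scaled TPM between Pvir hep and Pvir abdM of -0.17, and the 32 longer members had -0.15. Their ratios had medians of 2.48 and 2.62. The shorter members rest on fewer fragments, with a median of 241 counts against 1051 and a lowest value of 13 counts, found for a member of 232 nt in Pfal abdM of animal 1. Of the 585 counts of the set, 3 were under 20.

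The gene models of the members were drawn from the prediction programs named in their identifiers in nearly the same shares as those of the other genes at this level. Models of the kind evm-processed made up 41.5% of the members and 41.4% of the other genes, and models of the kind maker-snap 40.0% and 40.2%. Over all gene models these kinds made up 9.68% and 26.0%. The members lay on 65 different scaffolds of the draft assembly, so that no pair of members was annotated on 1 scaffold. For 49 of them the scaffold carried at least 1 other gene model. A single transcript was annotated for 64 members. The expected count of 4 members was not whole in any library, which occurs when RSEM divides reads between similar transcripts, and these members are uncertain in that respect.

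The spread between animals remained after scaling. The coefficient of variation (CV, SD divided by the mean over the 3 animals of a group) of the scaled TPM, averaged over members, was 20.4% ± 11.0 (SD over 65 genes) in Pvir hep, 26.9% ± 12.6 in Pvir abdM and 26.6% ± 12.4 in Pfal abdM. The CV that counting alone gives, computed from the members' counts, averaged 3.64%, 7.00% and 5.92%. The intervals that RSEM gives for TPM had a median reach of between 3.04% in Pvir hep of animal 2 and 12.0% in Pvir abdM of animal 7 on either side. For the other genes at this level the mean CV was 34.3%, 44.5% and 43.8%, an order that the limit on the ratio brings about.

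The spread of the members depended strongly on scaling. With the deposited TPM, the mean CV of the members was 24.6% in Pvir hep, 48.3% in Pvir abdM and 51.3% in Pfal abdM. Division by the scaling medians lowered it to 26.9% and 26.6% in the muscle groups and to 20.4% in the hepatopancreas. The rule chose the members by these scaled values, so part of the drop is given. With deposited TPM the other genes at this level had mean CVs of 34.7% (Pvir hep), 45.0% (Pvir abdM) and 57.5% (Pfal abdM). With scaled TPM these were 34.3%, 44.5% and 43.8%. Of the 65 members, 30 had the higher CV in P. virginalis muscle and the rest in P. fallax muscle with deposited TPM, and 32 had it with scaled TPM. The ratio of the mean CV in P. virginalis to that in P. fallax was 0.942 and 1.01, respectively. Without animals 2, 6 and 7 in turn, the mean CV of deposited TPM in Pvir abdM was 58.7%, 35.4% and 32.8%. Without animals 1, 3 and 4 in turn, that in Pfal abdM was 44.3%, 58.6% and 30.1%. These CVs are over 2 animals, so they are not directly comparable with those over 3.

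**Figure D3:**
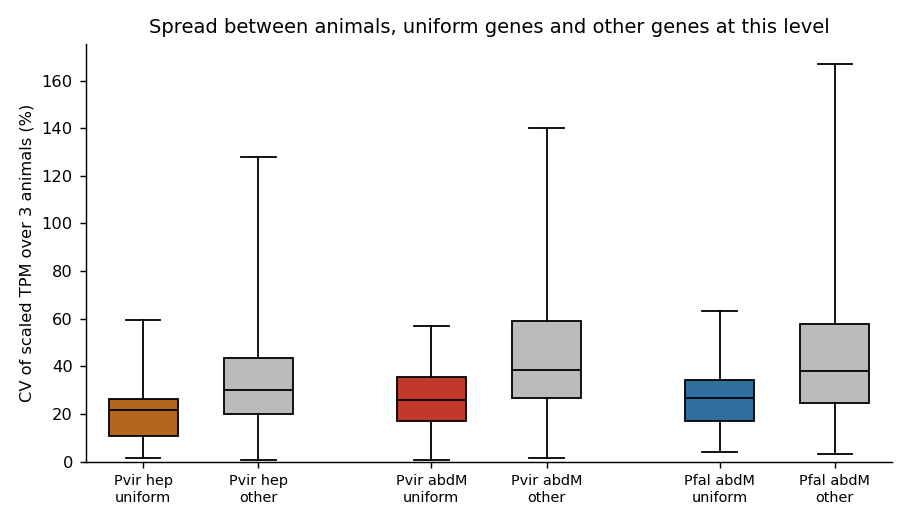
Coefficient of variation of scaled TPM over the 3 animals of each group, for the 65 members (coloured) and the 343 other genes at this level (grey). Boxes give quartiles and medians, and whiskers reach the lowest and highest gene. The medians of the members are 21.5%, 26.0% and 26.6%, and those of the other genes 29.9%, 38.4% and 38.0%.

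Between pairs of animals, hepatopancreas libraries of animals 6 and 7 were the closest. A member differed between them by a median factor of 1.15, and by more than a factor of 2 for 0 of 65 members. For pairs with animal 2 the median factors were 1.34 (animal 6) and 1.30 (animal 7). In Pvir abdM they lay between 1.31 and 1.35, and in Pfal abdM between 1.28 for animals 3 and 4 and 1.40 for animals 1 and 3, with 12 members beyond a factor of 2 in the last pair. The pooled SD of log2 scaled TPM within groups had a median of 0.40 over members, against 0.46 for the SD over all 9 libraries.

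A few libraries held most of the extreme values. Of the 65 members, 19 had their lowest scaled TPM in Pvir hep of animal 2, 11 in Pfal abdM of animal 1 and 9 in Pfal abdM of animal 3. The highest value was in Pvir abdM of animal 6 for 15 members and in Pfal abdM of animal 3 for 14. Relative to a member's mean over the 9 libraries on the log2 scale, the median member stood at -0.33 in Pvir hep of animal 2 and at 0.29 in Pvir abdM of animal 6, and between -0.05 and 0.13 in the other 7 libraries. The former library is the deepest and has the shortest fragments (length minus effective length of 167 nt, against 173 to 185 nt in the others), and the latter is the library that sets the floor. The part of depth and fragment length in these deviations was not tested. Deviations of the hepatopancreas libraries correlated with each other across the 65 members (r from 0.34 to 0.51), whereas those of libraries of the same muscle group did not do so uniformly (r from -0.26 to 0.19). Each deviation is taken from the mean of the same 9 values, which by itself makes correlations negative on average.

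For the comparison of tissues, the question was how far the members differ between organs of the same animals. On average over animals, 26 members were higher in Pvir hep and 39 were lower on the scaled TPM scale, whereas with deposited TPM 59, 65 and 59 members were higher in the hepatopancreas of animals 2, 6 and 7. The median log2 difference was -0.16 (quartiles -0.54 and 0.18, range -0.92 to 0.92), and the difference was smaller than the within-group SD for 33 members. By animal, the median difference was -0.29 in animal 2, -0.30 in animal 6 and -0.05 in animal 7, and 41, 42 and 35 members were lower in the hepatopancreas. Animals 2 and 6 were sequenced with shorter reads than animal 7, so that each value is within 1 read length. The direction was the same in all 3 animals for 27 members, 8 of them higher and 19 lower in the hepatopancreas, and it differed between animals for 38. Relative to the scaling median, the floor of 10 TPM stands higher in P. virginalis muscle than in the hepatopancreas, which favours genes that are high in muscle. Its part in these directions was not tested.

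With edgeR's quasi-likelihood test on expected counts, 0 of the 65 members had an adjusted p under 0.05 between Pvir hep and Pvir abdM, and 4 had an unadjusted p under 0.05. Over all 6770 genes tested, 38.4% were called and 46.9% had an unadjusted p under 0.05. The rule used the same libraries, so nothing is read from this contrast. With DESeq2 and with limma on log2(TPM + 1), 0 and 24 members were called, beside 2907 of 16442 and 3580 of 6818 genes tested. Limma was run on deposited TPM without further scaling. All 24 members were higher in the hepatopancreas there, as were 90.1% of all genes called. The median log2 difference in limma was 1.11 for the members and 1.22 for all genes tested. The median log2 fold change of the members in edgeR was -0.37, with standard errors between 0.41 and 0.68 for single members, against 0.17 for all genes tested. Under scaling by library size only, without TMM factors, both medians moved up, to 0.94 and 1.48. There 5 members were called higher in the hepatopancreas, beside 2970 of the 6770 genes called in either direction. Relative to all genes tested the members stood at -0.55 with TMM factors, but at -0.23 with DESeq2, at -0.11 with limma on log2(TPM + 1), at -1.44 without a filter on low counts and at -0.32 without Pvir hep of animal 2. Of the other genes at this level, 120 of 343 (35.0%) were called, 17 higher and 103 lower in the hepatopancreas, and their median log2 fold change was -1.08. These genes passed the same floor, which stands higher in muscle relative to the scaling median, so no tissue direction is read from them. Libraries of the tissues did not overlap in scaled TPM for 7 members that were higher and 11 that were lower in the hepatopancreas. These are 10.8% and 16.9% of the members, where 35.7% and 15.7% of all genes tested were in these classes.

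The members with the largest differences between tissues were named after their values were seen. evm-scaffold23880-processed-gene-0.86 had a scaled TPM of 19.9, 20.8 and 20.8 in Pvir hep and of 10.5, 9.21 and 13.3 in Pvir abdM, so the tissues did not overlap. The P. fallax muscle values of 9.20, 20.1 and 15.1 spanned both. Its log2 fold change in edgeR was 0.69 ± 0.50 (SE, adjusted p = 0.30). In maker-scaffold31717-snap-gene-0.2 the order was the opposite, with 3.86, 4.57 and 4.37 in Pvir hep, 8.53, 10.5 and 5.85 in Pvir abdM, and 10.6, 9.97 and 9.81 in Pfal abdM. All 6 muscle libraries were above the 3 hepatopancreas libraries, and the log2 fold change between the P. virginalis tissues was -1.18 ± 0.46 (SE, adjusted p = 0.066, edgeR with Benjamini-Hochberg adjustment). In deposited TPM this gene had 60.5 and 60.6 in the hepatopancreas and muscle of animal 2, 72.2 and 40.5 in animal 6, and 82.5 and 67.0 in animal 7, so muscle was the higher in animal 2 before scaling too, by a small margin, and in animals 6 and 7 after scaling only.

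For the comparison of species, only muscle of P. fallax was analysed, and its P. virginalis libraries are those that also enter the comparison of tissues. In scaled TPM, 33 members were higher and 32 were lower in P. virginalis muscle, with a median log2 difference of 0.01 (quartiles -0.24 and 0.28, range -0.87 to 0.79). For 47 members the difference was smaller than the within-group SD. With the same edgeR test, 0 of the 65 members had an adjusted p under 0.05, and 0 had an unadjusted p under 0.05. DESeq2 and limma on log2(TPM + 1) also called 0 members, beside 122 of 12298 and 25 of 5067 genes tested. Of all 5053 genes tested, 1.25% were called, a contrast on which the choice of members likewise rested, and 7.50% had an unadjusted p under 0.05. Of the other genes at this level, 0 of 342 tested were called. The median log2 fold change of the members was -0.06 with TMM factors and -0.78 with library sizes alone, where the medians of all genes were -0.01 and -0.59. Standard errors of single members lay between 0.47 and 0.66.

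The species did not overlap in scaled TPM for 5 members that were higher and 1 that was lower in P. virginalis muscle. These are 7.69% and 1.54% of the members, where 6.23% and 5.74% of all genes tested were in these classes. The largest differences, chosen after their values were seen, were in maker-scaffold16694-snap-gene-0.5, given above, and in evm-scaffold84290-processed-gene-0.0. In the latter the scaled TPM was 2.15, 3.34 and 2.57 in Pvir abdM and 4.73, 5.68 and 4.24 in Pfal abdM, without overlap. Its values in Pvir hep, 2.87, 4.33 and 4.00, overlapped both. The log2 fold change between the species was -0.93 ± 0.52 (SE, adjusted p = 0.79, edgeR with Benjamini-Hochberg adjustment). Read length differs between the species, since only animal 7 of P. virginalis was sequenced like P. fallax. With that muscle library alone, 30 members were higher and 35 lower in P. virginalis, with a median difference of -0.03.

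**Figure D4:**
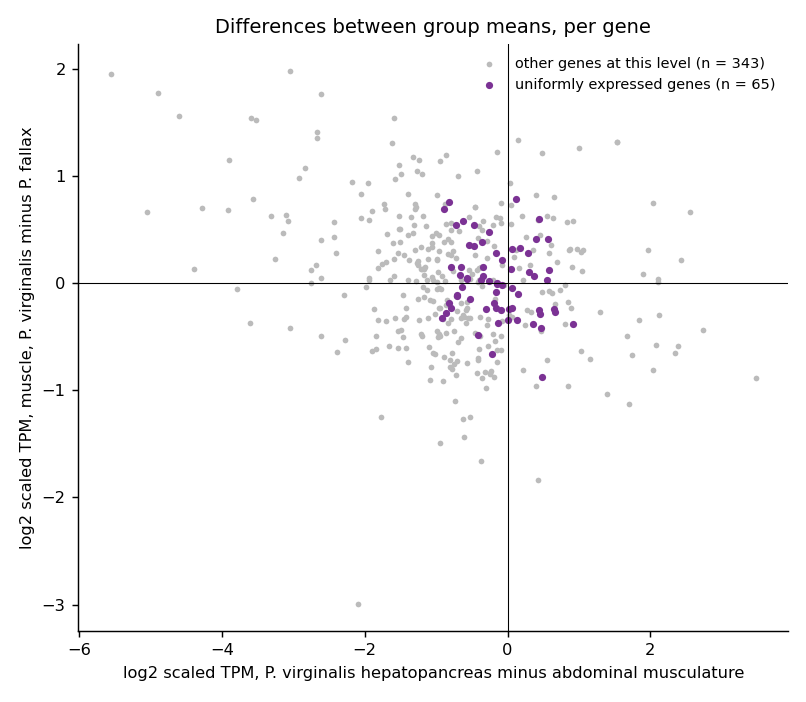
Difference between group means of log2 scaled TPM for each gene, between tissues of P. virginalis (horizontal axis) and between muscle of P. virginalis and P. fallax (vertical axis). Purple points are the 65 members, which lie between -0.92 and 0.92 and between -0.87 and 0.79, and grey points are the 343 other genes at this level.

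Whether uniform genes stay uniform in a library that did not choose them was examined by leaving out each library in turn. The rule was applied to the other 8 libraries, which gave between 74 and 147 genes, and the left-out library was then scaled and added. Summed over the 9 libraries, 632 of 803 choices (78.7%) kept a ratio of at most 3. The sets overlap, so these are not 803 different genes. The share was between 86.7% and 89.2% for 5 libraries, namely Pvir hep of animals 6 and 7, Pvir abdM of animals 2 and 7 and Pfal abdM of animal 1. It was 77.4% in Pfal abdM of animal 4, 72.8% in Pvir abdM of animal 6, 67.7% in Pfal abdM of animal 3 and 65.4% in Pvir hep of animal 2.

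The value in the left-out library was also compared with genes that were at this level in the other 8 libraries but had a ratio above the limit there. Of the chosen genes 59.5% lay within a factor of 1.5 of their geometric mean over the other 8, and of the rest 44.5%. The chosen genes had the higher share in all 9 libraries. Part of this is given, since the rest had a wide ratio over the same 8 libraries that form the mean. The other libraries of the left-out group also took part in the choice. The gap was widest in Pvir hep of animal 7 (73.0% against 36.6%) and smallest in Pfal abdM of animal 3 (45.2% against 43.9%). In Pvir hep of animal 2 the chosen genes were lower than in the other libraries by a median of 0.66 on the log2 scale (37.5% against 29.2% within the factor). When the 3 libraries of a whole group were left out together, an alternative chosen after seeing the data, fewer genes kept the ratio. These were 79 of 206 (38.3%) for Pvir hep, 111 of 195 (56.9%) for Pvir abdM and 62 of 142 (43.7%) for Pfal abdM. Only the ratio was counted here, and 19, 90 and 9 of the chosen genes fell under the floor of 10 TPM in the left-out group. Within the factor of 1.5 lay 15.5% of the chosen genes against 10.2% of the rest for Pvir hep. The shares were 28.7% against 11.3% for Pvir abdM and 12.0% against 9.48% for Pfal abdM.

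**Figure D5:**
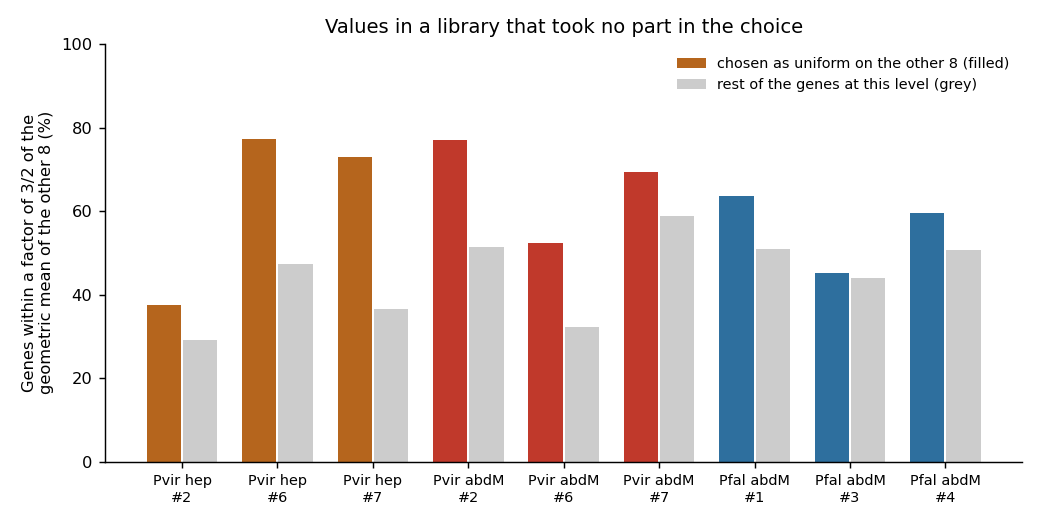
Share of genes whose scaled TPM in a left-out library was within a factor of 1.5 of their geometric mean over the other 8 libraries. Coloured bars are genes that met the rule on those 8, and grey bars are the rest of the genes at this level, whose ratio over those 8 exceeded the limit. The coloured bar is the higher in all 9 libraries, from 37.5% in Pvir hep of animal 2 to 77.3% in Pvir hep of animal 6.

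As a reference for scaling, the members were set beside general methods. Each factor was expressed per unit of TPM and divided by its geometric mean over the 9 libraries. The geometric mean TPM of the members spanned a factor of 4.32 between libraries, the scaling medians 4.89, TMM factors 5.45 and DESeq2's size factors 5.81. The scaling medians were between 0.862 and 1.16 times the members' factor, which is partly given, since these medians chose the members. TMM factors lay between 0.830 and 1.07 times the members' factor in 8 libraries and at 1.50 times in Pvir hep of animal 2. DESeq2's size factors lay between 0.803 and 1.06 times in the same 8 libraries and at 1.55 times in that library. Under TMM scaling, 44 genes met the rule, of which 34 were among the 65 members (52.3% of the members and 77.3% of the 44).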

How the data were processed

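RNA-seq of 9 libraries was analysed. The submitters' processing notes name HISAT2 2.0.4 and RSEM 1.2.30, without roles. The authors deposited the gene-level RSEM output, with expected counts (fragments estimated per gene, not normalized), TPM and posterior mean TPM with interval bounds, and gene lengths. No source used here states the annotation release, read trimming or strand setting, or gives gene names. Read lengths were taken from the study's sequencing details.

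The members, gene lists and tests were chosen with earlier results of these data known. Expected counts were rounded and tested with edgeR 4.0.16 in R 4.3.3 (quasi-likelihood test, TMM factors, filterByExpr, Benjamini-Hochberg adjustment over all genes tested, adjusted p under 0.05) with the 2 groups compared in each fit. Checked on simulated counts, the fit recovered known changes that were larger than the limit of 3 on the ratio, in genes with many counts. Differences as small as those of the members were not simulated. Replicates are separate animals by the sample names, with which the individuals counted in the series description conflict. Alternatives used DESeq2 1.42.0, limma 3.58.1 on log2(TPM + 1) and log2(TPM + 0.1), other scalings, floors and limits, each library left out, and the animal as a replicate block. Further steps used Python 3.11.15, NumPy 2.4.6, SciPy 1.17.1 and pandas 2.3.3. Named genes were the 2 members with the smallest ratio, the genes on either side of the limit, the most abundant member and, for each test, the members past the threshold with the largest rise and fall (none qualified). Counting errors and intervals cover counting only, since PCR copies cannot be told from separate molecules.

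The sample names give both tissues of P. virginalis the same animal numbers, so the tissue samples are paired by animal. Across genes, the deviation of a sample from its group mean (log2 CPM) correlated between tissues of 1 animal with r = -0.07 in animal 2, 0.26 in animal 6 and -0.07 in animal 7. Between tissues of different animals, r ranged from -0.24 (hepatopancreas of animal 6, muscle of animal 7) to 0.23 (hepatopancreas of animal 2, muscle of animal 7).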

Additional observations from a re-analysis of the deposited data

How the results depend on the processing

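The number of uniformly expressed genes followed the thresholds. It was 7 with a limit of 2 on the ratio and 150 with a limit of 4, 148 with a floor of 5 TPM and 24 with a floor of 20 TPM, 25 with deposited TPM and no scaling (2 of them among the 65), 40 with DESeq2's size factors and 44 with TMM factors. With 1 library left out it was between 74 and 147, the highest without Pvir abdM of animal 6 (57 of the 65 among them) and 104 without Pvir hep of animal 2. Between tissues, 0 members were called in all fits except with library sizes alone (5) and with limma on log2(TPM + 1) (24) and log2(TPM + 0.1) (12). Of all genes tested, these fits called 2970 of 6770, 3580 of 6818 and 3506 of 6818. Every member they called was higher in the hepatopancreas. Between species, 0 members were called in every fit run. The median tissue difference of the members was 0.94 with library sizes alone and 1.06 as the ratio of mean TPM. It stayed between -0.53 and -0.20 with 1 library left out and was -0.39 in the paired fit with the replicate block, which changed no call of a member. Relative to the median of all genes tested, the members' tissue difference was -0.55 in the main fit, -0.23 with DESeq2, -0.11 with limma on log2(TPM + 1), -1.44 without a filter on low counts and -0.32 without Pvir hep of animal 2. The species difference was -0.78 with library sizes alone, -0.82 as the ratio of mean TPM, 0.01 with the scaling medians, and between -0.24 (without Pvir abdM of animal 6) and -0.010 (without Pvir abdM of animal 7) with 1 library left out. The hepatopancreas share was 0.861% in counts. The members' mean CV of deposited TPM was 48.3% in Pvir abdM and 51.3% in Pfal abdM. It became 26.9% and 26.6% with scaled TPM, by which the members were chosen, and 27.8% and 28.0% with TMM-normalized CPM. With 1 animal left out, the CV of deposited TPM ranged from 17.8% to 27.7% in Pvir hep, from 32.8% to 58.7% in Pvir abdM and from 30.1% to 58.6% in Pfal abdM, and that of scaled TPM from 12.8% to 20.7%, from 23.1% to 25.4% and from 20.8% to 27.9%. The CVs with 1 animal left out are over 2 animals and not directly comparable with those over 3. Leaving out a group gave 38.3%, 56.9% and 43.7% of uniform genes that kept the ratio, against 78.7% for single libraries. The fit on the longer reads alone, with 1 P. virginalis library assumed to vary like P. fallax, called 0 of 6275 genes, with 251 at an unadjusted p under 0.05. The cause of these shifts was not tested. Between tissues, 63.9% of all called genes were higher in the hepatopancreas with TMM factors and 87.4% with library sizes alone. Between species the number of genes called was 63 in the main fit, 122 with DESeq2, 307 without a filter on low counts and 25 with limma on log2(TPM + 1), and it was 39 and 35 without Pvir abdM of animal 7 and Pfal abdM of animal 4.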

Other observations

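Uniform relative levels were not limited to the 65 genes. Of the 2371 genes with a TPM of at least 1 in every library, 464 (19.6%) had scaled values within a factor of 3, and 398 of these were left out by the floor of 10 TPM. For 352 of the 398 the lowest deposited TPM was in Pvir abdM of animal 6, and 54 were under the floor in 1 library alone. Their median length was 1636 nt and the median of their mean TPM was 8.33. Together they held between 0.135% and 0.693% of the TPM of a library. Their counts went down to 3, so for part of them the ratio rests on few fragments.

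Among the 93 genes removed by the upper limit, 1 had a ratio within the limit, and it was named after its values were seen. evm-scaffold33215-processed-gene-0.15, a gene model of 2706 nt, had a TPM of 2743, 2179 and 2440 in Pvir hep, 1932, 1292 and 1376 in Pvir abdM, and 1612, 1782 and 3177 in Pfal abdM, a ratio of 2.78 after scaling. It held 0.206% of the TPM of a library on average.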
